A study of Rattus norvegicus with 1 sample.

Results

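The regions described here were the distal parts of rat chromosomes 9 and 11, in which input DNA of thyroid cells gave a high density of sequenced tags. Their members were non-overlapping 100 kb bins, on chromosome 9 from 100 Mb to the last tag and on chromosome 11 from 56 Mb to the last tag. There were 453 such bins among 27197 bins of the autosomes and chromosome X. Of them, 135 lay on chromosome 9, out of 1135 bins of that chromosome, and 318 lay on chromosome 11, out of 878. Measured tag density chose both regions, so their density is given as a description and was not tested.

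The DNA came from PCCl3 cells, an established line of differentiated rat thyroid follicular cells grown in medium with serum, thyrotropin, insulin and other hormones. It served as the unselected control of a genome-wide search for sites bound by Pax8, a transcription factor of the thyroid. The cells were fixed with formaldehyde, their chromatin was sonicated, and no antibody was applied. The data held 1 library of 1 group, labelled input DNA, with 6714002 aligned tags, so no replicate error could be given and no groups could be compared. The study tells input, set aside before sonication, from DNA that was sonicated but not immunoprecipitated. According to its methods the second kind was sequenced and used for peak calling, and the labels also put the sampling after sonication. The same methods also say that input served to normalize the ChIP-Seq assays. The name input DNA is therefore kept here only as the label.

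Input DNA holds all regions of the genome without selection, and programs that search for bound sites take its local tag density as the background of the immunoprecipitated DNA. Such density is not flat. It is known to vary with the number of copies of a region, with base composition, with the ease of fragmentation and with how much of the sequence can be aligned. A region with a high background therefore needs more immunoprecipitated tags to be called bound. Copy number, base composition and alignable length of the regions were not analysed here.

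A distinct tag was 1 tag per 5′ end and strand, and every tag beyond the first at such a place was called repeated. The library held 5985139 distinct tags. The autosomal median was 189 distinct tags per 100 kb bin, taken over the 24510 of 25590 bins that held at least 25% of it. This filter kept 452 members and left out 1, on chromosome 11. All intervals are at the 95% level, exact Poisson for counts and Clopper-Pearson for shares. Only counting error is covered by them, because PCR copies without molecular identifiers cannot be told from independent molecules.

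Both regions were denser than the autosomal median, though less dense than chromosome 10 from 62 Mb to 105 Mb, at 2.40 times, and distal chromosome 1 from 260 Mb to 268 Mb, at 3.08 times. Distal chromosome 11 stood out more from its own remainder than distal chromosome 9 did. Distal chromosome 9 held 50293 distinct tags (49854 to 50734), with a median of 363 per bin, or 1.921 times the autosomal median. Distal chromosome 11 held 113925 (113264 to 114588), with a median of 326, or 1.72 times the autosomal median. Counting error was small beside these ratios. The members made up 1.77% of the autosomal bins and held 2.84% of the autosomal distinct tags.

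In order to see how each region compared with its own chromosome, the remaining bins were counted in the same way. The rest of chromosome 9 had a median of 188.5 distinct tags per bin, close to the autosomal median at 0.997 times. The rest of chromosome 11 had a median of 127, or 0.672 times. The distal bins were thus 1.93 times as dense as the rest on chromosome 9 and 2.57 times on chromosome 11. The middle 50% of the bins overlapped on chromosome 9, from 1.16 to 2.63 times the autosomal median in the distal region and from 0.667 to 1.52 in the rest. On chromosome 11 they did not, with 1.05 to 2.48 in the distal region and 0.534 to 1.01 in the rest.

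The name high density fitted most bins but not all of them. Of the 135 bins of distal chromosome 9, 102 lay at least 15% above the autosomal median, as did 224 of the 317 retained bins of distal chromosome 11, where 43.1% of all retained autosomal bins did so. A density of at least 2 times the median was reached by 65 bins (48.1%) and 127 bins (40.1%), against 15.1% of autosomal bins. At the same time, 14 bins of distal chromosome 9 (10.4%) and 50 of distal chromosome 11 (15.8%) lay at least 15% below the median, against 41.5% of autosomal bins. These counts describe the choice of the regions and support nothing beyond it.

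**Figure D1:**
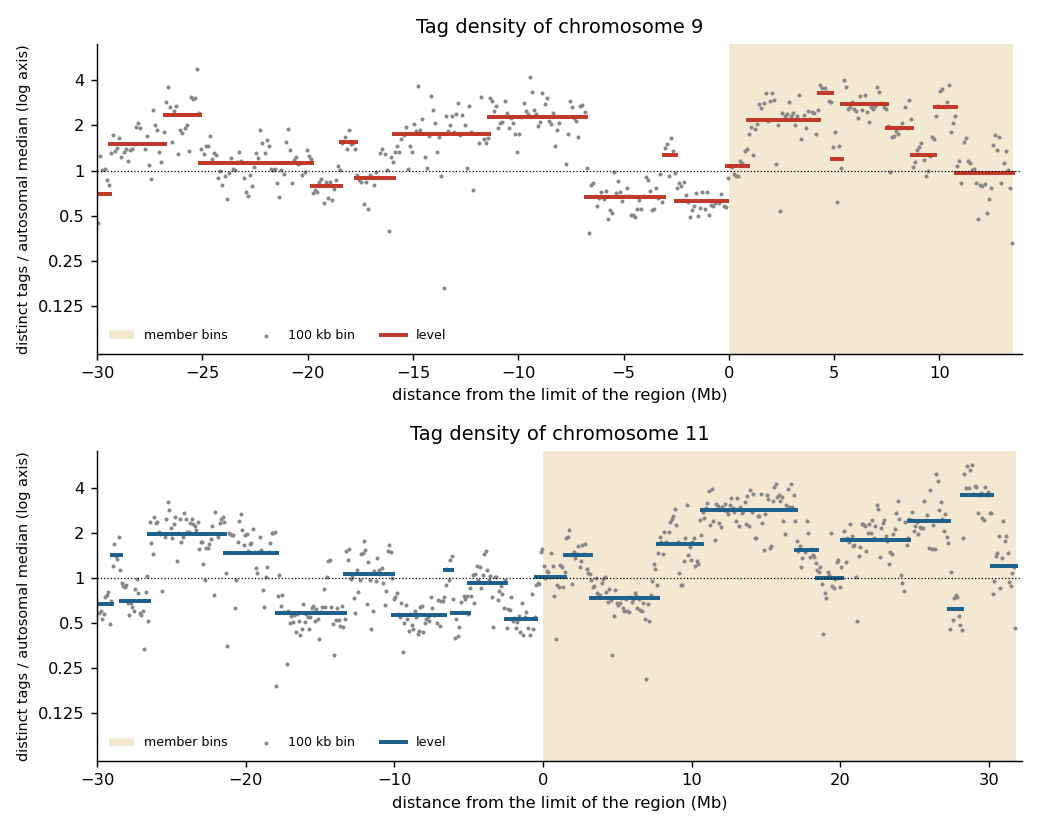
Distinct tags per 100 kb bin over the autosomal median (log axis), by distance from the limit of each region (100 Mb on chromosome 9, upper panel; 56 Mb on chromosome 11, lower panel), from 30 Mb before the limit on. Points are bins (those before the limit with no or almost no tags are not drawn), horizontal bars are levels found by segmentation and the shading marks the members. The levels of the members run from 0.961 to 3.31 on chromosome 9 and from 0.619 to 3.58 on chromosome 11, so neither region is flat.

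Single bins ranged widely. On chromosome 9 the densest member, chr9:105400001-105500000, held 762 distinct tags (709 to 818), or 4.03 times the autosomal median. The next were chr9:110400001-110500000 with 700 and chr9:104300001-104400000 with 699. These 3 bins lay in 3 different levels of the region, as described further on.

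The sparsest whole bins of distal chromosome 9 were chr9:111800001-111900000 with 90 distinct tags, chr9:112200001-112300000 with 98 and chr9:102400001-102500000 with 101. A pair of them lay near the end of the chromosome and the other among dense bins. The last bin held 62, but it was cut short by the last 5′ end at 113439772.

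On chromosome 11 the 3 densest members were close together. They were chr11:84800001-84900000 with 1068 distinct tags (1005 to 1134), or 5.65 times the autosomal median, chr11:84500001-84600000 with 1054 and chr11:84700001-84800000 with 996. The sparsest was chr11:62900001-63000000 with 40 (28.6 to 54.5) and no repeated tag, the member left out by the filter. It was followed by chr11:60600001-60700000 with 58 and chr11:56800001-56900000 with 74. Bins nearly as sparse also lay further on, such as chr11:74800001-74900000 with 80 and chr11:84100001-84200000 with 85.

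The position of the rise was then placed in 10 kb bins, since the limits at 100 Mb and 56 Mb are round numbers. Between the 2 Mb before and after the limit, the median per 100 kb bin rose from 110 to 297 on chromosome 9, a 2.70-fold change (1.43 on the log2 scale). On chromosome 11 it rose from 103 to 209, a 2.03-fold change (1.02 on the log2 scale). A change at least as large, in either direction, was found at 3.35% of 24883 autosomal positions for chromosome 9 and at 11.1% for chromosome 11. The limits were set where the density rose, so these shares are a description as well.

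The bins at the limits themselves showed no jump. On chromosome 9 the last bin outside held 169 distinct tags (144 to 196) and the first bin inside held 203 (176 to 233), with overlapping intervals. On chromosome 11 the last bin outside held 294 (261 to 330) and the first bin inside held 227 (198 to 259), a fall. The rise had thus begun before the limit on chromosome 11.

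On chromosome 11 a single step described the rise. It was placed at 55450001, with a range from 55440001 to 55480001, where density went from 89.9 to 220 distinct tags per 100 kb, a 2.45-fold change. The 8 bins of 10 kb from 55360001 to 55440000, next to that place, held no tag, and 27 of the 145 bins before the step were empty. Over occupied bins alone, density went from 110.4 to 222 at the same place, a 2.01-fold change. A ramp in place of the step took a width of 400 kb, but its range reached from 0 to 500 kb, and it fitted better by only 1.099 log-likelihood units, less than the drop that bounds the ranges given here. With minus-strand tags alone the step moved to 55660001, and without empty 10 kb bins or with 4 Mb searched on either side it moved to 55650001. The step lay before the limit under all of these settings.

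On chromosome 9 the rise took more than a single step. The step of best fit was placed at 100820001, with a range from 100710001 to 100820001, and went from 140 to 427 distinct tags per 100 kb, a 3.04-fold change. A ramp fitted better by 55.7 log-likelihood units. It ran from 99850001 to 101750000, a width of 1900 kb (range 1700 to 2200), and went from 112 to 488 distinct tags per 100 kb, a 4.33-fold change. With 1 Mb searched on either side, the single step was placed at 99900001 in place of 100820001.

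**Figure D2:**
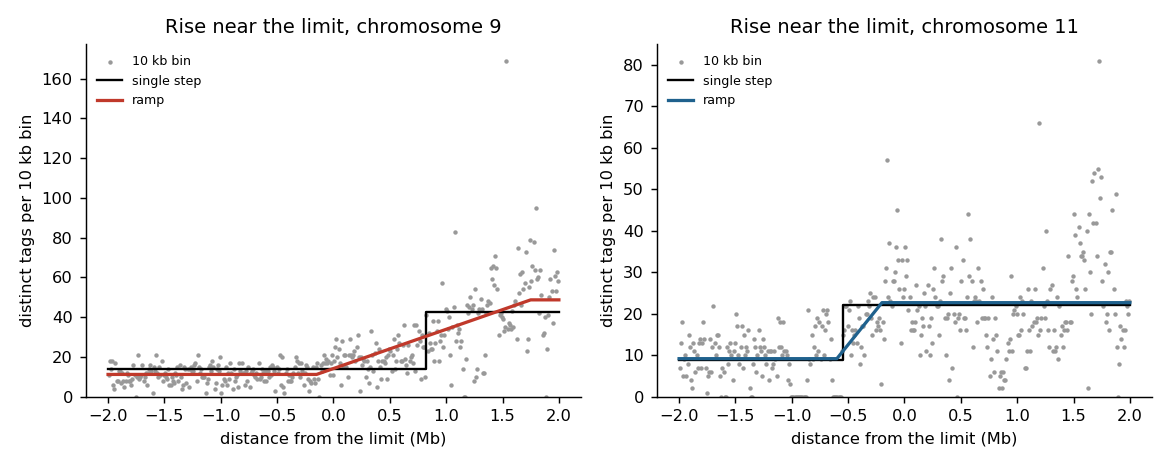
Distinct tags per 10 kb bin within 2 Mb of the limit of each region, for chromosome 9 (left) and chromosome 11 (right), on linear axes that start at 0. Points are bins, the black line is the single step of best fit and the coloured line is the ramp of best fit. The ramp on chromosome 9 is 1900 kb wide, and that on chromosome 11 is 400 kb wide with a range that reaches 0.

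To find out whether each region was 1 level or several, the counts of 100 kb bins were segmented over the whole chromosome, with segments of at least 500 kb and neighbours at least 15% apart. Both regions held several levels. Distal chromosome 9 was divided into 9 levels, of which 7 lay at least 15% above the autosomal median and covered 9.9 Mb of 13.5 Mb, and 0 lay at least 15% below it. Distal chromosome 11 was divided into 12 levels, of which 8 lay above, covering 23.2 Mb of 31.8 Mb, and 2 lay below. The number of levels depended on the settings. On chromosome 9 it was 5 with a penalty of 6 in place of 3 or with 200 kb bins, and 15 with a penalty of 1.5. On chromosome 11 a penalty of 1.5 gave 21. No setting gave 1 level.

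The levels of distal chromosome 9 rose, peaked and came back down within the region. The first, chr9:99900001-100900000, had a level of 1.07 times the autosomal median, after 0.627 in the 2.4 Mb before it. From 100900001 to 104300000 the level was 2.17, and from there to 104900000 it was 3.31, the highest of the region. A dip to 1.20 followed, from 104900001 to 105400000.

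Beyond the dip, chr9:105400001-107500000 had a level of 2.79, and the next segments stepped down to 1.91, until 108700000, and 1.27, until 109800000. The segment chr9:109800001-110800000 was again high at 2.66. The last 2.7 Mb, from 110800001 to the end of the chromosome, were at 0.961, which is the autosomal level. Some bins beyond 110800000 were again high, such as chr9:111200001-111300000 and chr9:112600001-112700000, at 1.64 and 1.72 times the autosomal median, so the last level is an average over high and low bins.

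On chromosome 11 the high levels lay in several stretches with lower ones between them. The first segments, chr11:55500001-57500000 and chr11:57500001-59200000, were at 1.02 and 1.41. The 4.5 Mb from 59200001 to 63700000 were at 0.735, below the autosomal median. The first long high stretch therefore began well inside the region.

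This stretch had a level of 1.69 in chr11:63700001-66700000 and 2.81 in chr11:66700001-73000000. Density fell to 1.53 until 74400000 and to 0.995 until 76100000. In the next stretch the levels were 1.79 in chr11:76100001-80600000 and 2.41 in chr11:80600001-83300000. A trough of 0.9 Mb, chr11:83300001-84200000, was at 0.619, the lowest level of the region.

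The trough was followed at once by the highest level of both regions, 3.58 in chr11:84200001-86200000. This was the largest change among the breaks of both regions. In 10 kb bins it lay at 84230001, with a range from 84230001 to 84260001, and density went from 107.3 to 837 distinct tags per 100 kb, a 7.80-fold change. The last 1.6 Mb of the chromosome were at 1.20.

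The other breaks were placed in 10 kb bins too, with ranges of position in parentheses. On chromosome 9 the rise to the highest level lay at 104310001 (104300001 to 104310001) and was 1.57-fold. The fall into the dip lay at 104910001 (104900001 to 104940001), where density went to 0.407 of its value before, and the rise out of it at 105400001 (105400001 to 105420001) was 2.76-fold.

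Further on, density went to 0.576 of its value at 107530001 (107500001 to 107570001) and to 0.562 at 108700001 (108690001 to 108720001). It rose 2.28-fold at 109820001 (109810001 to 109840001). The last fall, to 0.393 of the value before, lay at 110750001 (110740001 to 110790001), from 503 to 198 distinct tags per 100 kb.

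The rise into the first long high stretch of chromosome 11 lay at 63720001 (63710001 to 63720001) and was 2.72-fold, from 137 to 372 distinct tags per 100 kb. The fall that closed its densest level lay at 72960001, to 0.444 of the value before. The fall into the trough was placed at 83130001 (83130001 to 83310001), to 0.328, and the fall behind the highest level at 86180001 (86150001 to 86190001), to 0.433.

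Several breaks of chromosome 11, the fall into the trough among them, had ranges of well over 100 kb. The rise at 76110001, 1.52-fold, had a range from 76060001 to 77400001, and that at 80600001 had a range from 80280001 to 80760001. The fall at 58970001 (58930001 to 59270001), the rise at 66730001 (66480001 to 66740001) and the fall at 74320001 (74210001 to 74400001) were the others. The rise at 57450001 (57410001 to 57500001) was placed within 100 kb.

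High levels were not confined to the distal region on chromosome 9. There the levels of the rest ran from 0.508 to 2.61, and chr9:88600001-93200000, at 2.29, was as dense as many members. On chromosome 11 the levels of the rest ran from 0.505 to 1.97, and 3 member levels lay above that range, at 2.81, 2.41 and 3.58.

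Density and the share of repeated tags vary together over the genome in this library, so the share was measured next. It was 10.1% (9.86% to 10.4%) in distal chromosome 9 and 11.3% (11.1% to 11.5%) in distal chromosome 11. The rest of chromosome 9 had 10.0% (9.90% to 10.1%), the rest of chromosome 11 had 8.56% (8.38% to 8.73%) and the other autosomes had 10.8%. By median count per bin, distal chromosome 9 was thus about 2 times as dense as the other autosomes. By mean count it was 1.59 times as dense as the autosomes. Its repeated share, pooled over all tags, was not higher.

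In the denser classes of bins, up to 4 times the autosomal median, the members held fewer repeated tags than bins of like density on the other autosomes. Bins above 4 times the median were not classed. In bins of 2 to 3 times the autosomal median, the repeated share was 10.6% (10.24% to 10.99%) in 49 bins of distal chromosome 9 and 11.6% (11.33% to 11.95%) in 78 bins of distal chromosome 11. It was 13.7% (13.5% to 14.0%) in 102 bins of the rest of chromosome 9, 13.5% in 34 bins of the rest of chromosome 11 and 13.7% in 2435 bins of the other autosomes. In this class the intervals of the members did not overlap those of the others. In bins of 3 to 4 times the median the share was 12.3% and 14.2% in the members, against 16.1% in the rest of chromosome 9 and in the other autosomes. The rest of chromosome 11 had 1 such bin, at 13.3% (10.9% to 16.1%), whose interval held the value of distal chromosome 11.

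Nearer to the autosomal median the differences were smaller. In bins of 0.9 to 1.1 times the median the shares were 6.67% in distal chromosome 9 and 6.75% in distal chromosome 11, against 7.78% in the other autosomes. In bins of 0.5 to 0.7 times the median, only 4 were members on chromosome 9, and their share of 10.1% (7.54% to 13.1%) was higher than the 6.12% of the other autosomes. Those 4 bins went against the order seen in the denser classes. The 20 bins of distal chromosome 11 in that class kept it, at 5.25% (4.40% to 6.21%), though the interval held 6.12%.

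**Figure D3:**
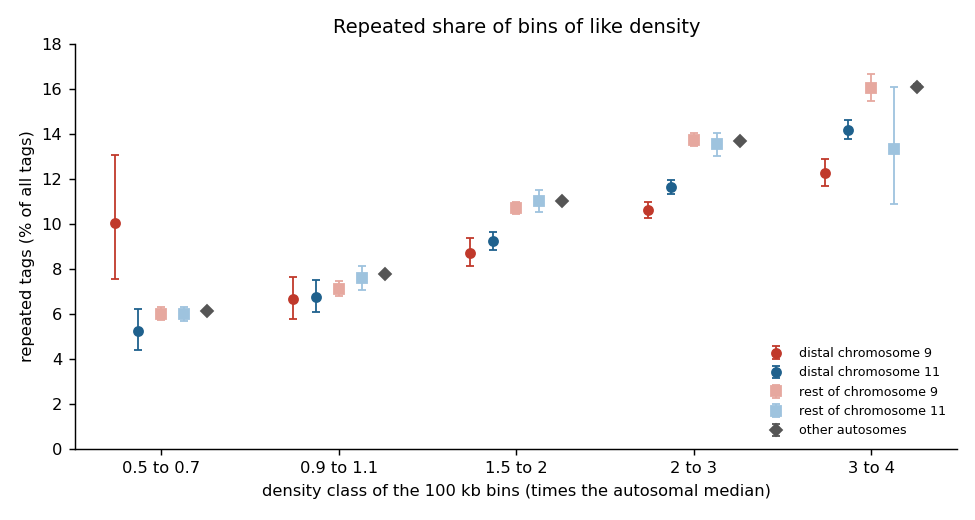
Share of repeated tags among all tags (%), for 100 kb bins grouped by density (times the autosomal median), in distal chromosomes 9 and 11, in the rest of both chromosomes and in the other autosomes. Error bars are Clopper-Pearson 95% intervals and cover counting error only. In the classes from 1.5 to 4 times the median, both distal regions lie below the other autosomes, with 10.6% and 11.6% against 13.7% in the class from 2 to 3. Denser bins are not shown.

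Bin by bin, the repeated share of the 1 Mb around each member was set against autosomal bins of other chromosomes with a density within 10%. The median difference was -2.16 percentage points in distal chromosome 9 and -1.32 in distal chromosome 11, against -0.140 and -0.256 in the rest of these chromosomes. The share was below that of bins of like density in 114 of 135 members on chromosome 9 (84.4%) and 230 of 317 on chromosome 11 (72.6%), where 50.3% of all autosomal bins were below. This was not particular to them, since the median difference was -1.08 in chromosome 10 from 62 Mb and -3.09 in distal chromosome 1 from 260 Mb to 268 Mb.

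The converse comparison gave the density of each member over bins of like repeated share. Each count was divided by the median count of autosomal bins, outside chromosomes 9 and 11, whose repeated share over 1 Mb lay within 1 percentage point. Distal chromosome 9 had a median of 1.64 times the matched bins, with quartiles of 1.33 and 1.88. Distal chromosome 11 had 1.405, with quartiles of 1.096 and 1.79. The rest of chromosome 9 had 1.06 and the rest of chromosome 11 had 0.966.

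By the median, matching thus lowered the excess density of both regions and left a part of it. The number of bins at least 15% above did not fall, since it was 102 and 224 in plain density. At least 15% above the matched bins were 114 of 135 members on chromosome 9 (84.4%) and 224 of 317 on chromosome 11 (70.7%), where 35.8% of all autosomal bins were. At least 2 times the matched bins were 23 members on chromosome 9 (17.0%) and 49 on chromosome 11 (15.5%), against 2.43% of autosomal bins. At least 15% below were 13 (9.63%) and 35 (11.04%), against 31.8%. Bins of a region lie next to each other in 1 library and are not replicates.

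When the other autosomes were cut into stretches of the same lengths, 1 of 166 stretches of 13.5 Mb (0.602%) was as far above its matched bins as distal chromosome 9, and the stretches ran from 0.495 to 1.65. In plain density, 9 of the 166 (5.42%) were as high. Of 65 stretches of 31.8 Mb, 2 (3.08%) were as far above their matched bins as distal chromosome 11 and 3 (4.62%) were as dense. Both regions were known to be high before this comparison. Among the regions most like them, chromosome 10 from 62 Mb to 105 Mb lay at 1.56 times its matched bins and distal chromosome 1 from 260 Mb to 268 Mb at 2.19.

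**Figure D4:**
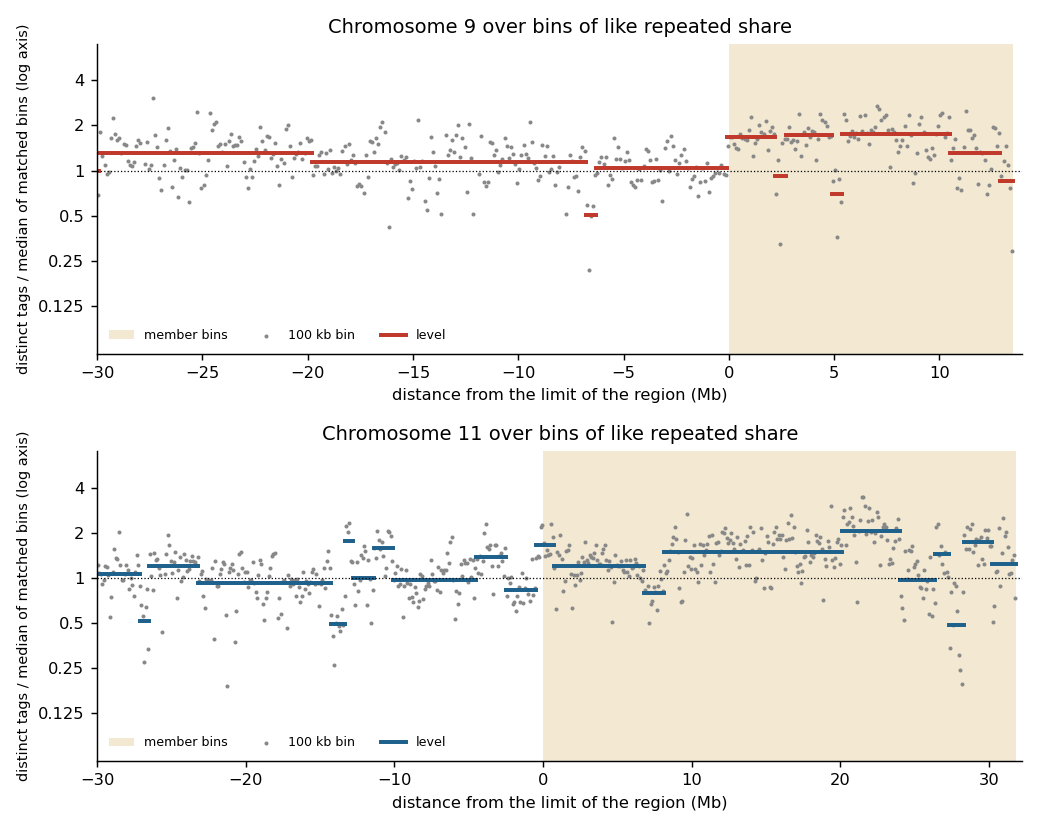
Distinct tags per 100 kb bin over the median of autosomal bins of like repeated share (log axis), by distance from the limit of each region, for chromosome 9 (upper panel) and chromosome 11 (lower panel), from 30 Mb before the limit on. Points are bins that passed the filter on low counts, bars are levels found by segmentation of these ratios and the shading marks the members. On chromosome 9 the level goes from 1.04 before the limit to 1.67, 1.73 and 1.76 in the long levels after it, and on chromosome 11 the levels of the members run from 0.486 to 2.05. At the lowest, the 1 Mb share used in matching reaches into the dense segment beside it.

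Matching brought the long levels of distal chromosome 9 close to each other, but did not make the region flat. Its ratios to matched bins gave 7 levels, from 0.698 to 1.76. The 3 long ones, 1.67 from 99900001 to 102200000, 1.73 from 102700001 to 104900000 and 1.76 from 105400001 to 110500000, lay within 15% of each other. Between them were a pair of dips of 500 kb, to 0.920 and 0.698.

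From 110500001 to 112900000 the matched level was 1.31, and in the last 0.6 Mb it was 0.847. That last value rested on the final bin, which was cut short and lay at 0.290, and the 5 whole bins alone were at 1.05. In whole Mb from 100 Mb to 111 Mb, the median over matched bins stayed between 1.46 and 2.04, while the plain density ran from 1.098 to 2.897 times the autosomal median. The segments found from plain density differed more over matched bins, with medians of 2.05 in chr9:104300001-104900000, 1.31 in chr9:108700001-109800000 and 1.77 in chr9:109800001-110800000. The long matched levels are therefore averages over some remaining variation.

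The dips rested on few bins. In the first the 5 bins from 102200001 on held 209, 381, 101, 455 and 438 distinct tags, and those of the second, from 104900001 on, held 272, 342, 117, 274 and 198. The bin with 101 had a repeated share of 17.9%, more than the 12.1% of the 1 Mb around it.

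The rise of chromosome 9 was then placed in the ratio to matched bins. A single step was placed at 99900001, where it went from 0.935 to 1.66, a 1.77-fold change. No ramp was fitted to these ratios, and the bin just before the limit was at 1.46. At that place the density itself rose 1.60-fold (range of the position 99880001 to 99910001), while the repeated share went from 5.76% (4.96% to 6.64%) to 6.27% (5.29% to 7.37%), a change within counting error. A later rise, 1.69-fold, was placed in 10 kb bins at 101350001 (101170001 to 101380001), after the break of the 100 kb levels at 100900001. Between the whole segments on either side of 100900001, the repeated share went from 6.27% to 10.6%. The matched ratio of these segments was 1.61 and 1.64. A fit of 2 steps was not set against the ramp.

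On distal chromosome 11 the levels stayed further apart. After matching it had 10 of them, from 0.486 to 2.05. The lowest was chr11:83300001-84300000, where the 1 Mb share used in matching reached into the dense segment beside it. The longest, chr11:64100001-76100000, was at 1.49 over 12 Mb in which the plain levels ran from 0.995 to 2.81. The highest, chr11:76100001-80000000, was at 2.05, and the Mb from 77000001 to 78000000 reached 2.42 at a repeated share of 6.27%.

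Among the member levels of plain density, the repeated share lay furthest from bins of like density in chr11:76100001-80600000. Over matched bins, chr9:104300001-104900000 was slightly higher, at 2.05 against 2.02. In chr11:76100001-80600000 the repeated share was 8.29% (7.89% to 8.71%) at a density of 1.79, and the bins there lay 3.52 percentage points below bins of like density. Within it, the bins chr11:77400001-77500000 and chr11:77500001-77600000, chosen after their values were seen, held 432 and 434 distinct tags and lay at 3.48 and 3.49 times their matched bins. From this segment to the next, chr11:80600001-83300000, the share went up by 6.50 percentage points, to 14.8% (14.2% to 15.4%). The density rose 1.24-fold in the 10 kb bins around the break at 80600001, and 1.35-fold between the levels. Both shares are those of whole segments, and the change of share was not placed at the break. Within the second segment, the bin chr11:81700001-81800000 alone had 33.4%. In chr11:80600001-83300000, at 2.41 times the autosomal median, the ratio to matched bins was 1.13. The bins there lay 1.38 percentage points above bins of like density, as a median, against the order of the members as a whole.

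The step that opens the region on chromosome 11 was like the first on chromosome 9. Over matched bins it was placed at 55500001 and went from 0.776 to 1.42, a 1.83-fold change. The repeated share was 6.29% (5.28% to 7.42%) before it and 6.18% (5.48% to 6.95%) after it. Beyond that, from 56700001 to 62800000, the matched level was 1.20, so that part was above its matched bins although the plain level from 59200001 on was 0.735.

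Over all breaks of the members, density and repeated share mostly changed together. Here a break was measured by the ratio of the levels on either side, and not by the fold in the 10 kb bins next to it given above. The change of the share was likewise that between the whole segments on either side. Of 18 breaks of at least 1.5-fold by that ratio, 3 came with a change of the share below 1 percentage point, against 8.24% of such breaks on the autosomes. They were the step at 99900001 and the break at 105400001 on chromosome 9 and the step at 55450001 on chromosome 11. Of the 3 breaks that were smaller by that ratio, 1 came with a change of at least 5 percentage points, that at 80600001, against 3.96% on the autosomes. In the 10 kb bins, that break alone was under 1.5-fold.

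Of the 21 member levels, 10 had a median of at least 1.5 times their matched bins, against 6.08% of 970 autosomal segments. They were 6 of 9 on chromosome 9 and 4 of 12 on chromosome 11. Measured density chose the regions, so these counts are a description. The trough chr11:83300001-84200000 was lowest at 0.484, but the share used in matching covered 1 Mb and so reached into the dense segment beside it. Matched on its own repeated share of 5.99%, the trough was at 0.882. No other member level moved by more than 1.5 times in that way.

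The strands, the fine structure and the strongest pile-ups were measured as well. The plus strand held 49.7% (49.3% to 50.2%) of the distinct tags of distal chromosome 9 and 50.2% (49.9% to 50.5%) of those of distal chromosome 11, both with 50% inside the interval. Plus-strand and minus-strand tags correlated best at a shift of 170 bp and 166 bp, against 167 bp in the other autosomes. In these measures the members did not stand apart.

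Pairs of distinct tags on opposite strands at the distance of a fragment, 100 to 250 bp, were counted in excess of pairs at 400 to 550 bp. The excess per 1000 distinct tags was 168 in distal chromosome 9 and 194 in distal chromosome 11. It was 114 and 78.7 in the rest of these chromosomes and 145 in the other autosomes. Both regions thus lay between the other autosomes and chromosome 10 from 62 Mb, where it was 267.

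Unevenness of the 10 kb bins depended on the measure. The coefficient of variation beyond counting, over occupied 10 kb bins, was 0.520 in distal chromosome 9 and 0.652 in distal chromosome 11. In the rest of these chromosomes it was 0.664 and 0.697, and in the other autosomes it was 0.773. The variance-to-mean ratio, which is 1 for Poisson counts, was 11.5 and 16.7 in the members, above the 11.1 and 9.36 of the rest of these chromosomes, and 15.3 in the other autosomes. In 50 kb bins the variance-to-mean ratio was 41.4 in distal chromosome 9 and 41.6 in the rest of that chromosome, which is nearly equal. On chromosome 11 it was 62.7 and 34.4. The coefficient of variation in 50 kb bins was again lower in the members. It was 0.463 against 0.604 on chromosome 9 and 0.586 against 0.632 on chromosome 11.

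Few bins were empty. Of the 10 kb bins, 49 of 1343 held no tag in distal chromosome 9 (3.65%) and 100 of 3174 in distal chromosome 11 (3.15%), against 5.11% and 4.46% in the rest of these chromosomes and 6.17% in the other autosomes. Occupied bins alone held 38.9 and 37.1 distinct tags on average in the members, and 24.0 in the other autosomes. Since the regions were chosen for their density, these means are a description.

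Pile-ups were more frequent in the members than in the rest of their chromosomes. Windows of 1 kb with at least 32 distinct tags, 10 times the mean of occupied windows, numbered 18 in distal chromosome 9 (134 per 100 Mb) and 51 in distal chromosome 11 (161 per 100 Mb). The rest of chromosome 9 had 27.0 per 100 Mb, the rest of chromosome 11 had 10.7 and the other autosomes had 42.8. Chromosome 10 from 62 Mb and distal chromosome 1 had more than the members, with 374 and 354. A fixed number of tags is reached more often where density is high.

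The window with the most tags on distal chromosome 9 was chr9:110729001-110730000, with 54 distinct tags (40.6 to 70.5), 31 of them plus-strand and 23 minus-strand. It was followed by chr9:108547001-108548000 with 50 and chr9:110052001-110053000 with 46. On distal chromosome 11 it was chr11:81771001-81772000, with 71 (55.5 to 89.6). That window was lopsided, with 18 plus-strand and 53 minus-strand tags, and repeated tags made up 66.7% of the 213 found there. The next were chr11:87169001-87170000 with 65 and chr11:85790001-85791000 with 59, with 26.1% and 14.5% repeated.

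Finally, the ends of the chromosomes were looked at separately. The outer 2 Mb of chromosome 9 had a median of 0.823 times the autosomal median, against 2.21 in the 115 members further in, with 7.01% of repeated tags. The outer 2 Mb of chromosome 11 had 1.43 times, against 1.74 in the 297 retained members further in, with 9.82% of repeated tags. Over matched bins the outer parts were at 1.24 and 1.45. The outer part of chromosome 9 was thus less dense, as a median, than the members further in.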

How the data were processed

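Input DNA of PCCl3 cells (1 library, 1 group) was sequenced on an Illumina instrument after size selection and PCR. The authors used the MIRO pipeline to place the 50 bp reads on build rn4 of the rat genome with at most 2 mismatches, and deposited the tag positions as a list with strand. No normalization had been applied. For the aligner's version and for reads that match several places, details were not given in the sources used here. The unit of the deposited values is a position, and counts of tags per bin were computed from the list here. Coordinates are 1-based on rn4.

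Bins under 25% of the autosomal median were left out. Distinct tags were used unless stated. Matching took autosomal bins outside chromosomes 9 and 11 within 1 percentage point of repeated share over 1 Mb, at least 50 of them. Steps were placed by quasi-Poisson likelihood in 10 kb bins within 2 Mb of each limit, with ramps of up to 2400 kb. Ranges hold the positions or widths within 1.92 scaled log-likelihood units of the best fit. They are not 95% intervals, and some steps moved outside them under other settings. Levels came from least-squares segmentation of log2 counts (penalty 3, at least 500 kb, neighbours under 15% apart joined). The scripts were tested on simulated data. Every level was named, with the 3 densest and 3 sparsest whole bins, the 3 windows of 1 kb with the most tags (at least 10 kb apart) and the bins at the limits. Python 3.11.15, NumPy 2.4.6, pandas 2.3.3, SciPy 1.17.1 and Matplotlib 3.10.9 were used.

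The members, measures and rules were chosen with earlier results of these data known. With 1 library, no test was made and no p-value was computed. Depth limits the precision, and a bin at the autosomal median holds 189 distinct tags. Genes and base composition of the regions were not analysed here, since no rn4 genome or annotation was used. DNA immunoprecipitated with the Pax8 antibody was not analysed here. Alternatives were all tags, other bin sizes, filters, strands, penalties, search widths and matchings.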

Additional observations from a re-analysis of the deposited data

How the results depend on the processing

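Of 84 values computed under alternatives, 63 stayed within their interval, position range or 1.5 times the count, 21 moved and 0 changed direction. With mean counts in place of medians, distal chromosome 9 lay at 1.59 times the autosomes and 1.66 times its own remainder, and distal chromosome 11 at 1.53 and 2.15. With matching on the opposite-strand excess, they lay at 1.37 and 1.21. The single step of chromosome 9 moved to 99900001 with 1 Mb searched on either side and over matched counts. That of chromosome 11 moved to 55650001 with 4 Mb on either side or occupied bins alone, to 55660001 with minus-strand tags and to 55500001 over matched counts, where 100 kb bins set the spacing. Levels on chromosome 9 numbered 15 with a penalty of 1.5 in place of 3, and 5 with a penalty of 6 or with 200 kb bins. On chromosome 11 the penalty of 1.5 gave 21. Without tag-rich windows the repeated share of distal chromosome 11 was 11.04%. The variance-to-mean ratio became 41.4 and 62.7 with 50 kb bins, which hold more tags, and 14.4 and 22.4 with all tags. Apart from those choices the cause was not tested. Steps in occupied bins or over matched counts, levels matched on their own repeated share and the last level without its partial bin were added after the data had been seen. Matching on GC content was not run, as no rn4 genome was used. No paired analysis was possible because all data came from a single library.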
